A study of Mus musculus with 6 samples.

Results

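The genes for integrin and laminin subunits were followed in 4T1, an epithelial line from a mouse mammary adenocarcinoma, kept in DMEM with serum and antibiotics at the oxygen level of air. They were taken by name: every gene of the deposited table whose symbol is that of an integrin alpha chain, an integrin beta chain or a laminin chain, 37 of 24421 genes in all. These were 18 integrin alpha, 8 integrin beta and 11 laminin genes, and 21 of the 37 (14 integrins and 7 laminins) had at least 0.5 RPKM (reads per length of the gene and depth of the library) in 3 or more of the 6 libraries. Expressed in the cells was a hairpin RNA, either a control (shCTL) or one directed at HSF1 (shHSF1), the transcription factor of the heat shock response. Each group had 3 messenger RNA libraries, replicates 1 to 3. The labels give neither the hairpin sequences, nor whether a line was a clone or a pool, nor whether replicates were separate cultures, so the p-values measure no more than library-to-library spread, part or all of which could be technical.

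Integrins are receptors in the cell membrane made of an alpha and a beta chain, and the pair decides which ligand is bound: collagens, laminins, proteins with the peptide motif RGD such as fibronectin, or receptors on other cells. Laminins are secreted trimers of an alpha, a beta and a gamma chain that polymerise into the basement membrane, the sheet on which mammary epithelium rests. Through talins and kindlins the integrin beta tail is tied to actin in focal adhesions, and through plectin and dystonin the Itgb4 tail is tied to keratin filaments in hemidesmosomes.

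The libraries held between 23750025 and 36903175 reads assigned to genes, and for a 2 kb gene the 3 reads taken as the floor equal 0.0406 to 0.0632 RPKM. Both replicate 1 libraries lay apart from the other 4 on the first principal component of all 11386 genes tested, which carried 53.8% of the variance (at −47.0 and −38.5 against 13.4 to 30.7). The targeted transcript, Hsf1 (on chromosome 15 at 76477445 to 76500972 in mm10), had 18.4, 20.3 and 20.1 RPKM in the control libraries, against 23.2 RPKM in replicate 1 labelled shHSF1 and 13.8 and 15.4 RPKM in its replicates 2 and 3. In the library labelled shHSF1 replicate 1 the target was thus above every control. Hsf1 differed by −0.20 on the log2 scale with replicate 1 (SE 0.21, limma adjusted p = 0.810) and by −0.46 without it (SE 0.10, limma adjusted p = 0.0433), and the members' differences are also given or plotted without both replicate 1 libraries (2 against 2). Epithelial keratins were abundant: the 11 epithelial markers summed to 2041 to 2668 RPKM in shCTL and 1604 to 1926 RPKM in shHSF1, led by Krt18 and Krt8, and with Krt5 at 0 reads in every library. Of the 9 tested, none passed limma over 6 libraries, and without both replicate 1 libraries Epcam and Esrp1 were higher and Krt8 and Cdh1 lower in shHSF1. Esrp1 passed the filter on low values through its shHSF1 libraries alone. The part of these markers in the other results was not tested.

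The most abundant integrin chain was Itgb1 (chromosome 8, 128685654 to 128733579), the beta chain shared by the collagen, laminin and many RGD receptors. Its level was 287, 348 and 347 RPKM in the shCTL libraries (in replicate order throughout) and 358, 419 and 400 RPKM in the shHSF1 ones. Every shHSF1 library lay above every shCTL library, by a ratio of 1.25, 1.2 and 1.15 within the same replicate number. The log2 difference, shHSF1 minus shCTL on the log2(RPKM + 0.5) scale used for every difference here, was 0.26 (SE 0.14, limma adjusted p = 0.558), so it did not pass the test. In bulk RNA, more transcript in every cell and more cells with the transcript cannot be told apart.

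Second among the integrins was Itga3, an alpha chain of laminin receptors that pairs with Itgb1. It stood at 135, 295 and 280 RPKM in shCTL and 231, 287 and 261 RPKM in shHSF1. Only shCTL replicate 1 was far from the rest, and the groups overlapped (log2 difference 0.21, SE 0.31, limma adjusted p = 0.875). Itga6, the laminin receptor chain that pairs with either Itgb1 or Itgb4, stood at 62.9, 84.9 and 87.9 RPKM in shCTL and 56.5, 86.7 and 75.3 RPKM in shHSF1. Itgav, the alpha chain of the vitronectin receptors, stood at 47.0, 53.2 and 59.3 RPKM in shCTL and 40.9, 62.7 and 53.9 RPKM in shHSF1. For both genes the groups overlapped and the log2 differences were small against their errors, at −0.11 (SE 0.21, limma adjusted p = 0.901) for Itga6 and −0.03 (SE 0.19, limma adjusted p = 0.972) for Itgav.

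The leading laminin chains were below Itgb1 and, on average, below Itga3. Lamb1 stood at 203, 149 and 149 RPKM in shCTL and 179, 182 and 148 RPKM in shHSF1, and Lamc1 at 111, 124 and 117 RPKM in shCTL and 136, 141 and 112 RPKM in shHSF1. These beta and gamma chains are shared by most laminins. Lama5, the alpha chain that joins them in the laminin of most adult epithelial basement membranes, stood at 177, 108 and 85.5 RPKM in shCTL and 151, 79.6 and 58.5 RPKM in shHSF1. Its level in shHSF1 was 0.855, 0.736 and 0.684 of the same-numbered control, while the groups as a whole overlapped (log2 difference −0.40, SE 0.41, limma adjusted p = 0.795). Together with Itgb1 and Itga3, these 3 were the 5 members with a mean of at least 100 RPKM over the 6 libraries, and 15 members had a mean of at least 10 RPKM.

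**Figure D1:**
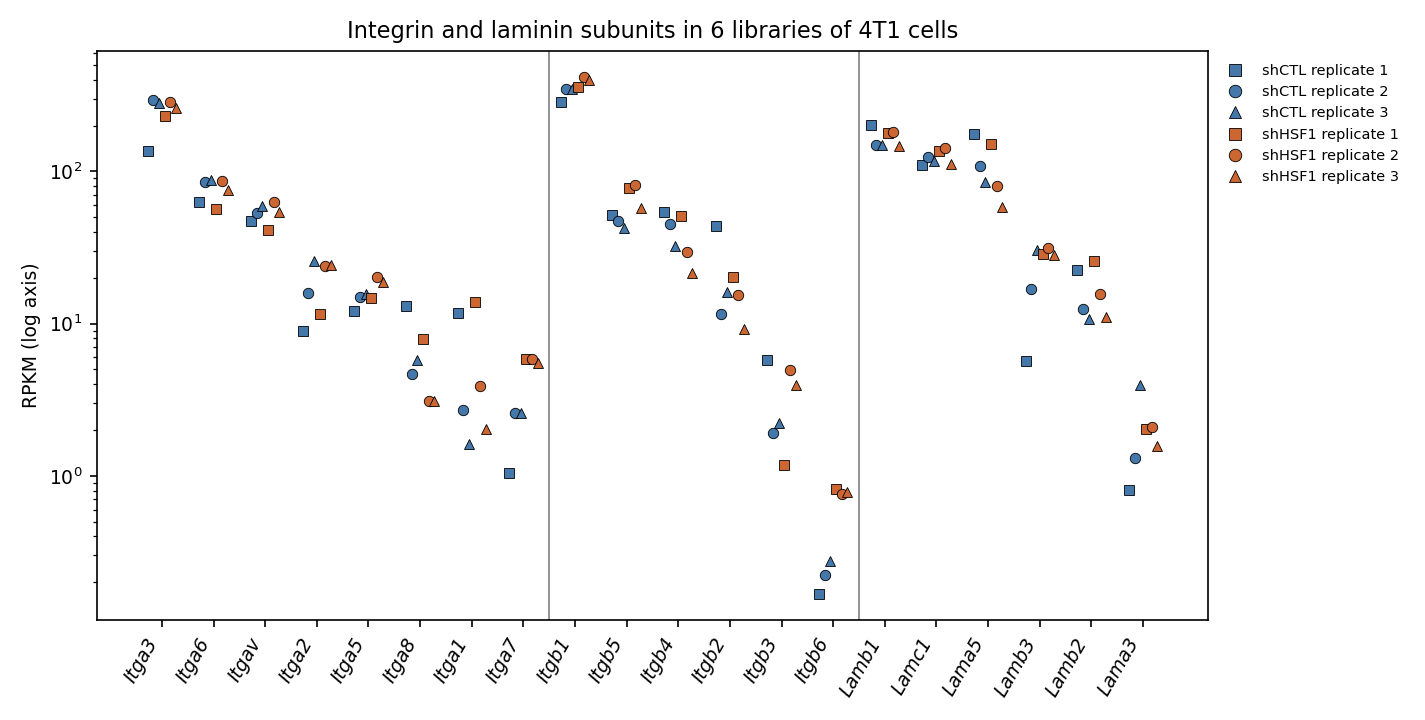
RPKM (log axis) of 20 of the 21 integrin and laminin genes with at least 0.5 RPKM in 3 libraries, 1 point per library, coloured by group and shaped by replicate, with genes ordered by mean within each class. Itgb1 lies between 287 and 419 RPKM and Itgb6 between 0.167 and 0.823 RPKM, and the replicate 1 libraries (squares) lie apart for Itga1, Itga8 and Itgb2.

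Within the integrin alpha, integrin beta, laminin alpha and laminin beta classes 1 chain held the largest share of the transcript in every library. Itga3 made up 46.1% of the summed alpha chain RPKM in shCTL replicate 1 and 58.1% to 62.1% in the other 5 libraries, followed by Itga6 with 14.7% to 21.4% and Itgav with 10.6% to 16.0%. Itgb1 made up 64.8% to 81.1% of the summed beta chain RPKM, and Itgb5 9.60% to 15.2%. Lama5 made up 95.6% to 99.5% of the laminin alpha sum and Lamb1 76.7% to 87.8% of the beta sum. The summed alpha chain level was 0.661 and 0.756 of the summed beta chain level in replicate 1 of shCTL and shHSF1, and 0.895 to 1.09 of it in the other 4 libraries. The shares are of transcript per length and say nothing of how many heterodimers form.

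**Figure D2:**
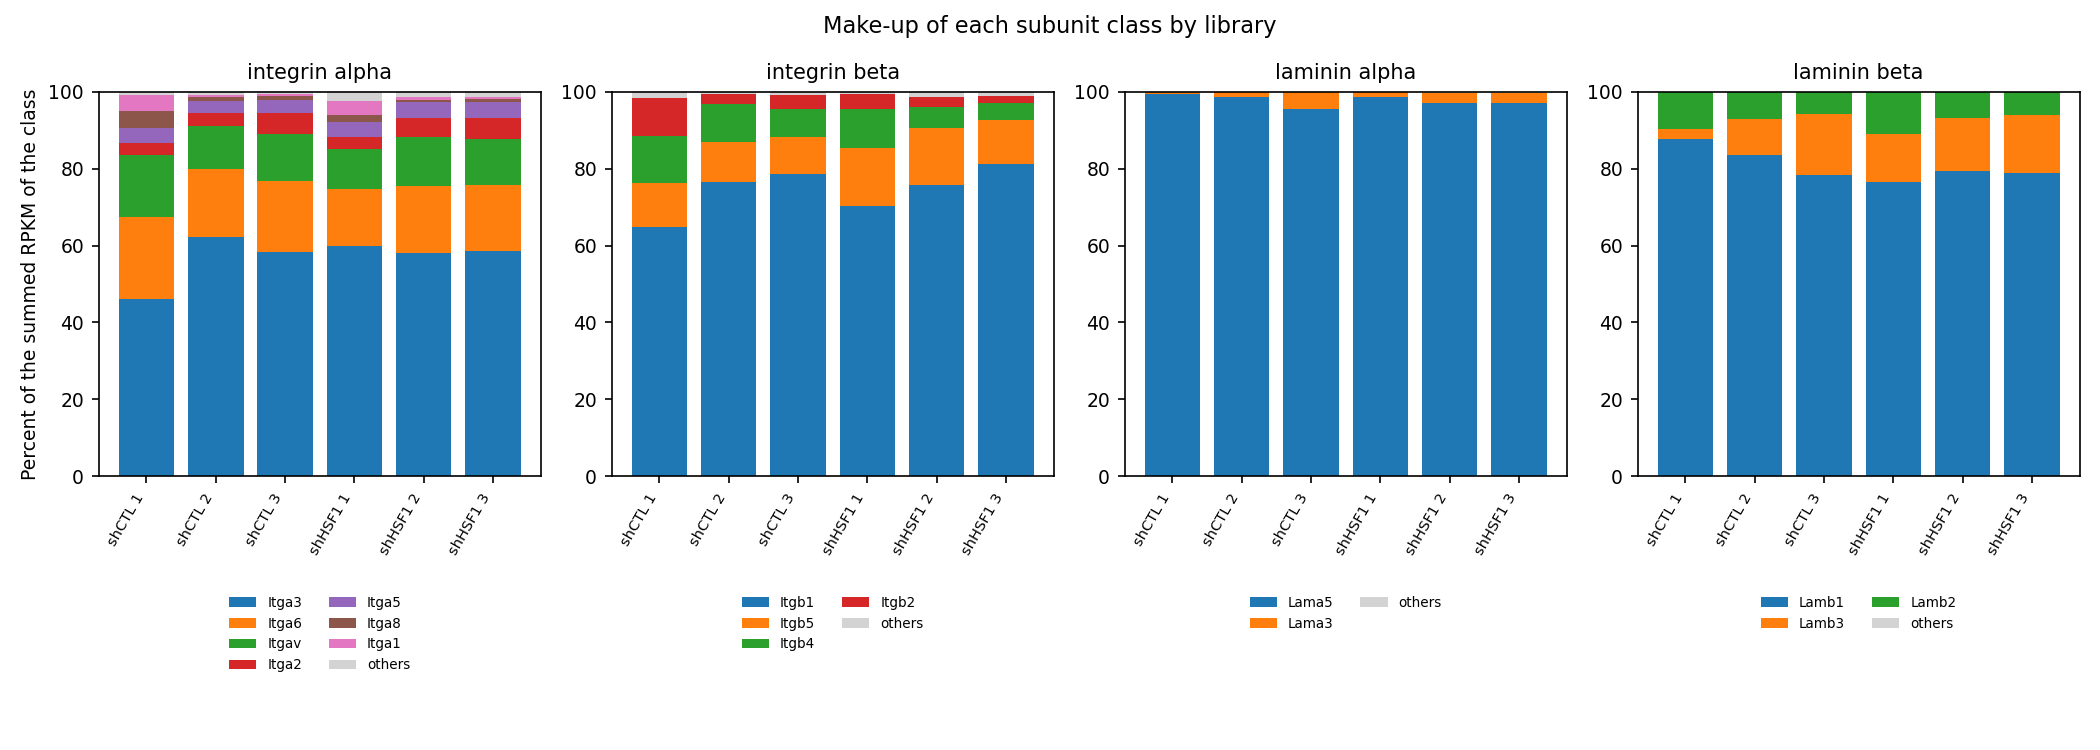
Share of each gene in the summed RPKM of its subunit class (percent) in each of the 6 libraries, with genes under 2% in every library drawn together in grey. Itga3, Itgb1, Lama5 and Lamb1 hold the largest share of their classes in every library.

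Over all 6 libraries no member passed an adjusted p of 0.05 in limma, where 3 of 11386 genes did (0.0263%). At an unadjusted p under 0.05 there were 3 members, all higher in shHSF1, against 7.88% of all genes tested that were higher at that level. In voom on the whole reads, and in limma with the replicate number as a block, no member passed either (11 and 20 genes did). The median log2 difference was 0.14 over the 21 members (13 above 0), and 0.05 over all genes tested, of which 6500 lay above 0. For 4 members (19.0%) every shHSF1 library lay above every shCTL library, against 12.9% of all genes, and for none did every one lie below (7.16% of all genes). These counts rest on the members that passed the filter on low values, Itgb6 through its shHSF1 libraries alone, and are no more than a description.

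The 3 members at an unadjusted p under 0.05 were Itga7, Itgb5 and Itgb6, and with Itgb1 they were the 4 whose groups did not overlap. Itga7 (chromosome 10, 128933813 to 128958284), a laminin receptor chain best known from skeletal muscle, stood at 1.05, 2.60 and 2.57 RPKM in shCTL and 5.84, 5.86 and 5.52 RPKM in shHSF1. The 3 shHSF1 libraries were close together and all at more than 2 times the highest control. Within the same replicate number the ratio was 5.56, 2.26 and 2.14, largest in replicate 1. The means were 2.07 ± 0.887 and 5.74 ± 0.192 RPKM (SD, n = 3 each), a ratio of 2.77 (log2 difference 1.35, SE 0.30, limma adjusted p = 0.186). Without both replicate 1 libraries Itga7 rose (log2 difference 1.00, SE 0.12, limma adjusted p = 0.0128), and it also passed with replicate 1 as a batch covariate (limma adjusted p = 0.0351). The 10 fibroblast and smooth muscle markers summed to 10.2 to 37.9 RPKM in shCTL and 16.0 to 23.2 RPKM in shHSF1, mostly Pdgfra. Among them Lum and Thy1 had 0 reads in every library. Col1a1 stood at 0.0691, 0.0627 and 0.0392 RPKM in shCTL and 0.261, 0.352 and 0.371 RPKM in shHSF1, with no overlap. Dcn and Myh11 were lower in RPKM in every shHSF1 library than in any control, but on few reads. Dcn had 5, 2 and 2 reads in shCTL and 1, 2 and 0 reads in shHSF1. Myh11 had 19, 5 and 5 reads in shCTL and 4, 3 and 1 reads in shHSF1. Pdgfrb overlapped between the groups, with 13, 19 and 3 reads in shCTL and 13, 148 and 52 reads in shHSF1. Of the 10 markers only Pdgfra passed the filter. The log2 difference of Itga7 ran from 1.02 to 1.52 with each library left out in turn. Its exons share 8 bases with Mettl7b on the other strand, 0.199% of the exonic length.

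Itgb5 (chromosome 16, 33829665 to 33949338), which pairs with Itgav in a receptor for vitronectin, stood at 51.5, 46.9 and 42.3 RPKM in shCTL and 77.6, 81.9 and 57.1 RPKM in shHSF1. The lowest shHSF1 library, replicate 3, was still above the highest control. The means were 46.9 ± 4.6 and 72.2 ± 13.3 RPKM (SD, n = 3 each), a ratio of 1.54 (log2 difference 0.60, SE 0.17, limma adjusted p = 0.274). Itgb5 did not pass without both replicate 1 libraries (log2 difference 0.61, SE 0.18, limma adjusted p = 0.0763) or with replicate 1 as a batch covariate (limma adjusted p = 0.0651). It was the most abundant of these 3 genes, with 3653 to 9925 reads a library.

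Itgb6 (chromosome 2, 60598292 to 60722603), another partner of Itgav, whose receptor binds and activates latent TGF-beta in epithelia, was scarce. It stood at 0.167, 0.222 and 0.274 RPKM in shCTL (21, 27 and 38 reads) and 0.823, 0.764 and 0.778 RPKM in shHSF1 (103, 144 and 114 reads). Every shHSF1 library was above every control, by a ratio of 4.93, 3.43 and 2.84 within the replicate numbers. Itgb6 passed the filter on low values through its shHSF1 libraries alone, so a difference was built into its being tested. On the log2 scale it differed by 0.84 (SE 0.20, limma adjusted p = 0.216), less than the 3.57-fold ratio of the means because 0.5 was added to each value. Itgb6 did not pass without both replicate 1 libraries (limma adjusted p = 0.0555) and passed with replicate 1 as a batch covariate (limma adjusted p = 0.0478). Among the beta chains that pair with Itgav, Itgb1 aside, the order was Itgb5, Itgb3 and Itgb6 in all 6 libraries, with Itgb8 below Itgb6 in all but shCTL replicate 1 (0.446 and 0.167 RPKM there).

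**Figure D3:**
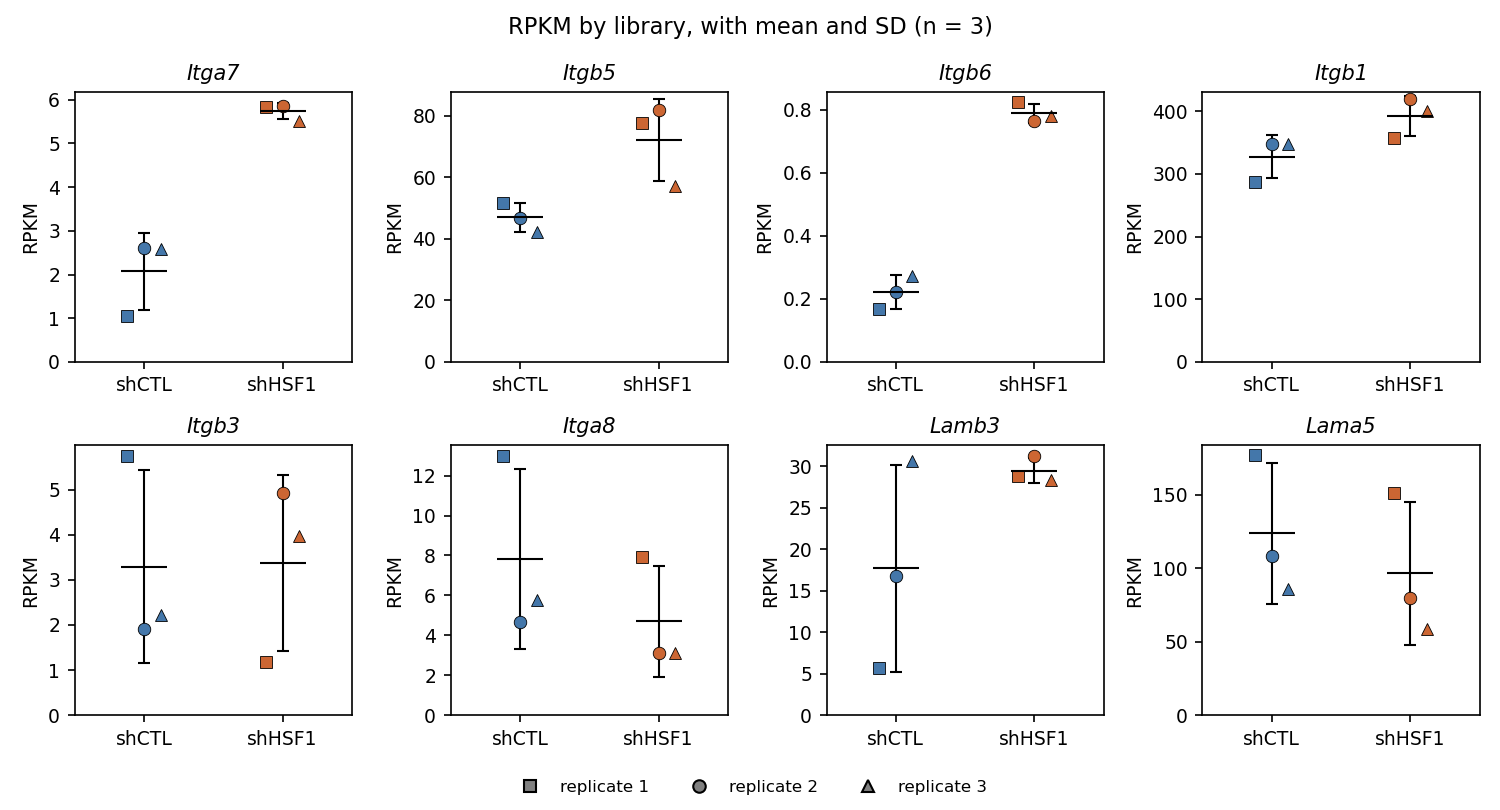
RPKM in each library for 8 members, by group, with the symbol giving the replicate, the horizontal mark the mean and the bar the SD (n = 3). Groups are apart for Itga7, Itgb5, Itgb6 and Itgb1, while for Itgb3 the replicate 1 libraries lie on the opposite side (5.75 RPKM in shCTL and 1.18 RPKM in shHSF1).

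Without both replicate 1 libraries, 3 of the 21 members passed limma. Those higher in shHSF1 were Itga7 and Itgb3, 9.52% of the members, where 7.04% of all genes passed in that direction. Itga8 was lower, 4.76% of the members, where 4.04% of all genes were. With replicate 1 as a batch covariate the members higher were Itga7 and Itgb6 (9.52%, against 3.89% of all genes). The member lower was again Itga8 (4.76%, against 1.75%). Itgb6 is counted there although it passed the filter on low values through its shHSF1 libraries alone. With 21 members, 1 gene makes up 4.76%, so these shares say little against the background.

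Itgb3 (chromosome 11, 104608000 to 104670471), the beta chain of the platelet fibrinogen receptor and, with Itgav, of a receptor for osteopontin and vitronectin, went in opposite directions by replicate. It stood at 5.75, 1.90 and 2.22 RPKM in shCTL and 1.18, 4.93 and 3.98 RPKM in shHSF1. The shHSF1 level was 0.205 of the control in replicate 1, and 2.59 and 1.79 times the control in replicates 2 and 3. Over 6 libraries the difference was near 0 (SE 0.55, limma adjusted p = 1.00), while without both replicate 1 libraries Itgb3 rose (log2 difference 0.95, SE 0.15, limma adjusted p = 0.0242). The call thus rests on leaving the replicate 1 pair out. Itga2b, the platelet partner of Itgb3, stood at 0.839, 0.417 and 0.214 RPKM in shCTL and 0.939, 0.465 and 0.426 RPKM in shHSF1 and did not pass the filter. The 6 platelet markers summed to 0.417 to 0.773 RPKM.

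Itga8 (chromosome 2, 12106660 to 12301920), an RGD-binding chain that pairs with Itgb1 and whose main ligand is nephronectin, was lower in shHSF1 within every replicate number. It stood at 13.0, 4.68 and 5.77 RPKM in shCTL and 7.92, 3.09 and 3.09 RPKM in shHSF1. Both replicate 1 libraries were above the others of their group, so the groups overlapped, although the shHSF1 level was 0.610, 0.661 and 0.536 of the same-numbered control. Taking all 6 together gave a log2 difference of −0.67 (SE 0.48, limma adjusted p = 0.670), which was −0.26 without shCTL replicate 1 and −1.08 without shHSF1 replicate 1. Without both replicate 1 libraries Itga8 fell (log2 difference −0.67, SE 0.14, limma adjusted p = 0.0395), and likewise with replicate 1 as a batch covariate (limma adjusted p = 0.0399). With the replicate block the limma adjusted p was 0.0941. Npnt, which encodes nephronectin, stood at 18.0, 12.3 and 10.6 RPKM in shCTL and 45.3, 19.6 and 19.4 RPKM in shHSF1 and rose without both replicate 1 libraries (log2 difference 0.75, SE 0.11, limma adjusted p = 0.0196).

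Promoter windows from RefSeq (GRCm38.p6, 250 bases before to 50 after a start site) were found within 1000 bases of the gene's 5′ end for 22 of the 37 members, 13 of them tested. Windows are shown for Itgb5, Itgb6 and Itga8 because they are among the members apart between the groups or called in replicates 2 and 3, while Itga7 and Itgb3 had no window. The searched motifs were pairs of the heat shock element repeat, facing each other (GAANNTTC) or back to back (TTCNNGAA), and the AP-1 site (TGANTCA), each on both strands. Such a pair is only a part of the element that HSF1 binds, and binding was not tested. Capitals mark a match, and no matches of different motifs overlapped in these windows. They lie at chr16:33829415-33829714 (plus strand) for Itgb5, chr2:60722554-60722853 (minus strand) for Itgb6 and chr2:12301895-12302194 (minus strand) for Itga8.
Itgb5: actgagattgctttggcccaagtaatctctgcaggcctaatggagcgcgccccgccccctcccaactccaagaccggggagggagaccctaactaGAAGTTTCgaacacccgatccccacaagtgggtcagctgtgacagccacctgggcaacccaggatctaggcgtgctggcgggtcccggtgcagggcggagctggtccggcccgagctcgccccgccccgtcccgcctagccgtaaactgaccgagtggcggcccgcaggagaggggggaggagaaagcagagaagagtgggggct
Itgb6: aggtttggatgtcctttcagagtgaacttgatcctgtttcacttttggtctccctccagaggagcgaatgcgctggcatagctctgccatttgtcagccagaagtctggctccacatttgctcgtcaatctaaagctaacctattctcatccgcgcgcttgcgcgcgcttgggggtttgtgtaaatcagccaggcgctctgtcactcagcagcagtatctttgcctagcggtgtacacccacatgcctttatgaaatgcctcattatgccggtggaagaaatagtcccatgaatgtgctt
Itga8: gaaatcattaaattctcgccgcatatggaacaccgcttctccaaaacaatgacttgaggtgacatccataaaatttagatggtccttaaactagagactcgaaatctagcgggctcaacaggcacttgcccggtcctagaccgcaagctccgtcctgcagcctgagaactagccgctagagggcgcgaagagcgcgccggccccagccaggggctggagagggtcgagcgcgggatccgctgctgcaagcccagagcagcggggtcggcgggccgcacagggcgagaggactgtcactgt

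The Itgb5 window held a facing pair that begins 155 bases before the start site. Such a pair was also found for Lama2, and back-to-back pairs for Itga1 and Itga5, in 22 member windows. Of all 32851 windows in the RefSeq table, 7.86% held a facing pair, 8.52% a back-to-back pair and 7.81% an AP-1 site. The AP-1 letters were found in the window of 1 member, Itgax. Itgb6 and Itga8 had none of these letters in their windows, nor had Itgb1, whose groups were also apart and whose window is not shown.

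Among the remaining laminin receptor chains, Itgb4 (chromosome 11, 115974725 to 116008411), the hemidesmosome chain that pairs with Itga6, stood at 54.1, 45.2 and 32.2 RPKM in shCTL and 50.9, 29.5 and 21.4 RPKM in shHSF1. The level was lower in shHSF1 within every replicate number (0.941, 0.652 and 0.664 of the control), and the groups overlapped. Its log2 difference came to −0.43 (SE 0.34, limma adjusted p = 0.722), or −0.59 (SE 0.21, limma adjusted p = 0.117) without both replicate 1 libraries. Its exons share 55 bases with Galk1 on the other strand, 0.892% of the exonic length. The ratio of Itga6 to Itgb4 ran from 1.11 in shHSF1 replicate 1 to 3.52 in shHSF1 replicate 3, with 1.16 in shCTL replicate 1.

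Lama3 and Lamb3 are the alpha and beta chains of the laminin that Itga6 and Itgb4 bind at hemidesmosomes. Lama3 stood at 0.801, 1.32 and 3.96 RPKM in shCTL and 2.04, 2.08 and 1.57 RPKM in shHSF1. The groups overlapped, with a log2 difference of 0.12 (SE 0.45, limma adjusted p = 0.957) over 6 libraries and −0.30 (SE 0.41, limma adjusted p = 0.646) without both replicate 1 libraries. Lamb3 stood at 5.64, 16.8 and 30.6 RPKM in shCTL and 28.9, 31.2 and 28.4 RPKM in shHSF1. Its 3 shHSF1 libraries were close together (SD 1.53 RPKM), the controls were spread (SD 12.5 RPKM), and the groups overlapped (log2 difference 1.01, SE 0.55, limma adjusted p = 0.552). Without both replicate 1 libraries that difference was 0.38 (SE 0.26, limma adjusted p = 0.357). Lamb2, which takes the place of Lamb1 in synaptic and glomerular laminins, stood at 22.5, 12.5 and 10.7 RPKM in shCTL and 25.6, 15.6 and 11 RPKM in shHSF1, with the groups overlapping (limma adjusted p = 0.920).

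**Figure D4:**
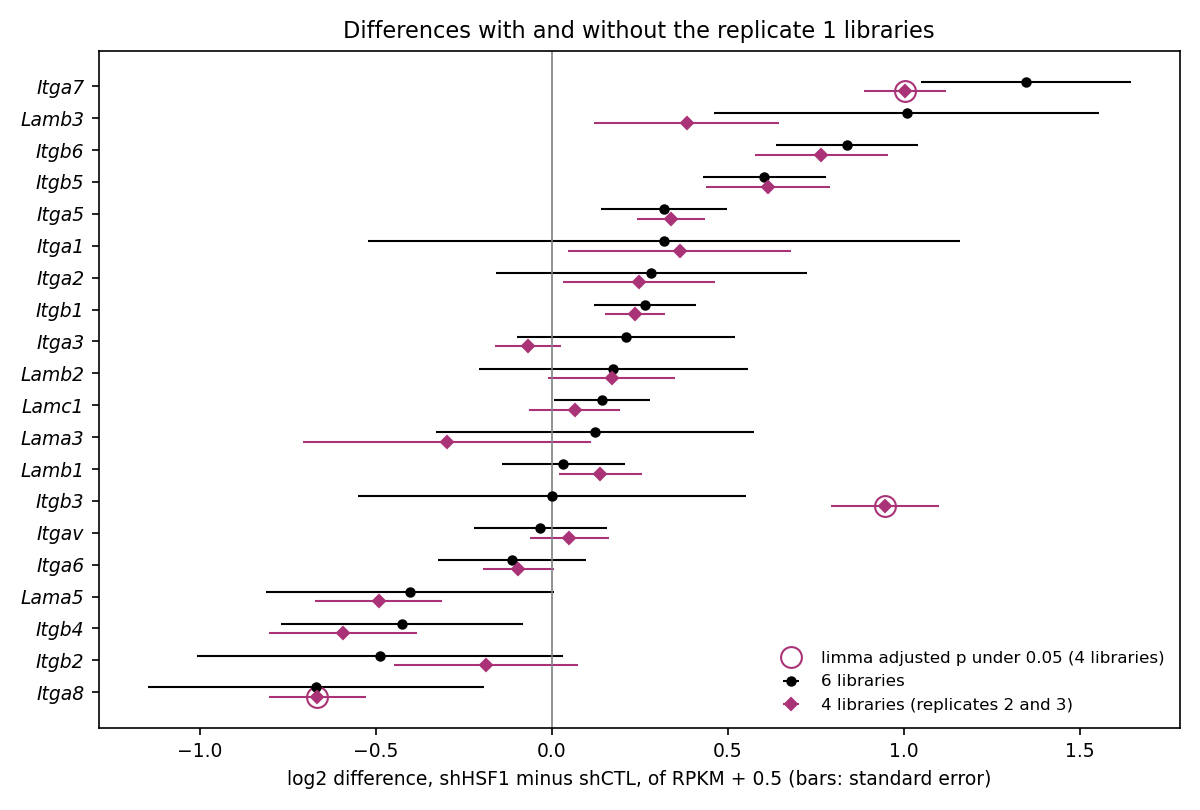
Log2 difference (shHSF1 minus shCTL, RPKM + 0.5) with its standard error for 20 of the 21 tested members, over 6 libraries (black) and without both replicate 1 libraries (purple), with a ring where the latter passed limma. Itga7 lies highest at 1.35 over 6 libraries, Itgb3 moves from near 0 to 0.95, and Itga8 is at −0.67 in both.

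The fibronectin receptor chain Itga5 stood at 12, 14.9 and 15.8 RPKM in shCTL and 14.7, 20.3 and 18.7 RPKM in shHSF1, higher in shHSF1 within each replicate number by 1.22, 1.36 and 1.19 times. Its log2 difference was 0.32 (SE 0.18, limma adjusted p = 0.564) over 6 libraries and 0.34 (SE 0.10, limma adjusted p = 0.0759) without both replicate 1 libraries. The collagen receptor chains Itga1 and Itga2, both partners of Itgb1, differed mainly by replicate number. Itga1 stood at 11.7, 2.70 and 1.61 RPKM in shCTL and 13.8, 3.91 and 2.04 RPKM in shHSF1. Itga2 stood at 8.93, 15.9 and 25.7 RPKM in shCTL and 11.5, 24.1 and 24.1 RPKM in shHSF1. Both genes overlapped between the groups (limma adjusted p = 0.936 and 0.883).

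Several members differed between the replicate 1 libraries and the rest. In 6 of the 21 members (28.6%) both replicate 1 libraries lay above the other 4, and in 5 (23.8%) both lay below, against 27.9% and 18.6% of all genes tested. Above were Itga1, Itga8, Itgb2, Itgb4, Lama5 and Lamb2, with the mean of replicate 1 at 4.98 times that of the other libraries for Itga1 and at 1.64 to 2.51 times for the other 5. Below were the alpha chains Itga2, Itga3, Itga5, Itga6 and Itgav, at 0.456 to 0.769 of the other libraries. What separates replicate 1 is not given in the labels, and its part in the group differences was not tested beyond the fits without it and with it as a covariate.

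Itgb2 (chromosome 10, 77530348 to 77565674), the beta chain of the leukocyte integrins, stood at 43.9, 11.5 and 16.1 RPKM in shCTL and 20.4, 15.3 and 9.23 RPKM in shHSF1. The highest library was shCTL replicate 1, and the groups overlapped (log2 difference −0.49, SE 0.52, limma adjusted p = 0.810). Its alpha partners were close to absent. Itgal had 3 reads over the 6 libraries, Itgam 14, Itgax 9 and Itgad 1, against 8933 for Itgb2. Of the 12 leukocyte markers, 3 had no read in any library, Cd3d and Laptm5 among them, and Ptprc, which marks all nucleated blood cells, reached at most 0.0845 RPKM. The 12 markers summed to 2.87 to 3.89 RPKM in shCTL and 6.92 to 8.81 RPKM in shHSF1, of which Cd14 made up 3.02 and 7.20 RPKM on average. Cd14 was the 1 leukocyte marker past the filter, and it rose without both replicate 1 libraries (log2 difference 1.12, limma adjusted p = 0.0138). Lyz2, which did not pass the filter, had no read in the shCTL libraries. In shHSF1 it had 1, 31 and 31 reads, or 0.0386, 0.795 and 1.02 RPKM. Apart from Cd14 and Lyz2, no leukocyte marker was apart between the groups.

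Of the 16 members that did not pass the filter, 11 stayed under 0.1 RPKM in every library, with fewer than 20 reads each over all 6. The other 5 were Itga10, Itga2b, Itgb7, Itgb8 and Lama4. Itga4, a leukocyte chain that binds Vcam1, had no read in any of the 6 libraries, which allows a level of up to 0.00827 to 0.0128 RPKM. Lama4, the laminin alpha chain of blood vessels, had no read in the 3 shCTL libraries (a limit of 0.0183 to 0.0209 RPKM) and 2, 45 and 13 reads in shHSF1, or 0.0135, 0.202 and 0.0750 RPKM. The 7 endothelial markers summed to 0.0784 to 0.212 RPKM, with Kdr, Tie1 and Emcn at 0 reads in every library. Just under the filter were Itgb7 (0.456, 0.488 and 0.496 RPKM in shCTL, and 0.443, 0.902 and 0.718 RPKM in shHSF1), Itga10 (0.0914 to 1.88 RPKM, highest in shHSF1 replicate 1) and Itga2b, with Itgb6 just above it. Itga9, Itga11, Itgae, Lama1, Lama2 and Lamc3 had between 2 and 15 reads over the 6 libraries. These limits cover counting error only.

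Genes that work with these subunits were taken from 7 lists of 131 symbols, of which 126 were in the table and 98 were tested. None passed over 6 libraries. Without both replicate 1 libraries 13 were higher and 5 lower in shHSF1 (13.3% and 5.10%, against 7.04% and 4.04% of all genes tested). With replicate 1 as a batch covariate 5 were higher and 4 lower (5.10% and 4.08%, against 3.89% and 1.75%). Ntn4, among the 13, passed the filter on low values through its shHSF1 libraries alone, so these counts are no more than a description. The median log2 difference of the 98 was 0.04, against 0.05 over all genes tested.

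In the focal adhesion list (38 tested, median 0.09), 3 rose and 1 fell without both replicate 1 libraries. These are 7.89% and 2.63% of the list, near or under the 7.04% and 4.04% of all genes. Fermt2, a kindlin that activates integrins through the beta tail, stood at 29.7, 25.5 and 26.8 RPKM in shCTL and 35.1, 42.2 and 41.6 RPKM in shHSF1. Every shHSF1 library was above every control (log2 difference 0.53, SE 0.13, limma adjusted p = 0.230, and 0.67, SE 0.09, adjusted p = 0.0162 without both replicate 1 libraries). The tensin Tns3 stood at 47.8 ± 10.5 RPKM in shCTL and 90.2 ± 19.6 RPKM in shHSF1 (SD, n = 3 each), and the tensin Tns1 at 8.29 ± 12 and 5.56 ± 2.69 RPKM, with shCTL replicate 1 far above the rest. Without both replicate 1 libraries the log2 differences were 0.55 for Tns3 and 1.28 for Tns1 (limma adjusted p = 0.0363 and 0.0391). Over 6 libraries neither passed (limma adjusted p = 0.228 and 0.932). In replicate 1 Tns1 went the other way, at 22.1 RPKM in shCTL and 8.39 RPKM in shHSF1. Talin, Tln1, fell without both replicate 1 libraries (−0.43, limma adjusted p = 0.0380), while in replicate 1 it stood at 44.9 RPKM in shCTL and 59.4 RPKM in shHSF1. Over 6 libraries its group means were 60.9 and 53.8 RPKM (log2 difference −0.15, limma adjusted p = 0.854).

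Of the basement membrane partners of laminins (12 tested, median 0.37), 4 rose and 1 fell without both replicate 1 libraries (33.3% and 8.33%, against 7.04% and 4.04% of all genes). Of those that rose, Ntn4 passed the filter on low values through its shHSF1 libraries alone. Hspg2, the proteoglycan perlecan, stood at 59.8, 43.4 and 45.5 RPKM in shCTL and 39.2, 28.7 and 26.5 RPKM in shHSF1, with no overlap (log2 difference −0.65, SE 0.20, limma adjusted p = 0.302, and adjusted p = 0.0182 without both replicate 1 libraries). Col4a2, a chain of basement membrane collagen, stood at 89.5, 88.2 and 93.6 RPKM in shCTL and 160, 141 and 125 RPKM in shHSF1, again with no overlap (log2 difference 0.64, SE 0.13, limma adjusted p = 0.175, and adjusted p = 0.0302 without both replicate 1 libraries). Sparc and Fbln1, matrix proteins that bind collagen and laminin networks, rose without both replicate 1 libraries by 0.95 and 0.99 on the log2 scale (limma adjusted p = 0.0134 and 0.0138). Sparc was higher within every replicate number, and Fbln1 was not: it stood at 2.19 RPKM in shCTL and 0.790 RPKM in shHSF1 of replicate 1.

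Of the integrin ligands of the matrix (13 tested, median 0.15), 4 rose without both replicate 1 libraries and none fell (30.8%, against 7.04% of all genes that were higher). Postn, which encodes a ligand of Itgav receptors, stood at 0.197, 1.87 and 2.68 RPKM in shCTL and 13.7, 9.52 and 9.38 RPKM in shHSF1. Its groups did not overlap, and replicate 1 differed most. The log2 difference of Postn was 2.69 (SE 0.56, limma adjusted p = 0.178) over 6 libraries and 1.86 (SE 0.16, limma adjusted p = 0.00749) without both replicate 1 libraries. The others that rose in that fit were Npnt, Ctgf and Cyr61, the last pair with log2 differences of 0.78 and 0.90 there (limma adjusted p = 0.0144 and 0.0417). The abundant ligands osteopontin, encoded by Spp1, and fibronectin, encoded by Fn1, stood at 1489 and 693 RPKM in shCTL and 1261 and 531 RPKM in shHSF1 on average, and neither passed in either fit.

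In the hemidesmosome list (9 tested, median −0.22) Dst, the plakin dystonin, fell without both replicate 1 libraries (−0.68, SE 0.12, limma adjusted p = 0.0300). Dst stood at 34.8, 34.5 and 32.0 RPKM in shCTL and 34.8, 22.7 and 18.7 RPKM in shHSF1. This 1 gene is 11.1% of the list, against 4.04% of all genes that were lower in that fit. Of the tetraspanins and other lateral partners (10 tested, median −0.15), Bsg and Tspan14 rose and Cd9 fell in that fit. These are 20% and 10% of the list, against 7.04% and 4.04% of all genes. Cd9, a tetraspanin that binds Itgb1 receptors, stood at 470, 316 and 296 RPKM in shCTL and 223, 216 and 176 RPKM in shHSF1, with no overlap between the groups (log2 difference −0.79, SE 0.21, limma adjusted p = 0.242, and −0.65, adjusted p = 0.0320 without both replicate 1 libraries). Of the counter-receptors on other cells (5 tested, median −0.03), Cdh1, the ligand of the Itgae receptor, fell in that fit (−0.98, SE 0.12, limma adjusted p = 0.0148). This gene is 20% of the list, against 4.04% of all genes that were lower. In replicate 1 Cdh1 stood at 53.2 RPKM in shCTL and 85.9 RPKM in shHSF1. In the trafficking list (12 tested, median 0.03) none passed in either fit. The smallest p there belonged to Acap1 and Gga3, with log2 differences of 0.78 and 0.46 over 6 libraries (limma adjusted p = 0.339 for both). With replicate 1 as a batch covariate 1 gene of the hemidesmosome list (not Dst) and 2 of the tetraspanin list, Cd9 among them, were lower. No gene of either list was higher. These are 11.1% and 20% of their lists, against 1.75% of all genes, and shares of lists this short say little against the background.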

How the data were processed

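Per the labels' protocols, libraries were made with the KAPA mRNA Hyperprep kit; 6 were compared, grouped by sample title. The authors deposited 1 table of RPKM with gene lengths, per the file headers. Per the submitters' processing notes, STAR, featureCounts and mm10 were used. Their versions, the annotation, the strand setting and the treatment of multiply assigned reads are not stated, so antisense and overlapping genes may share reads. Columns of unmatched samples numbered 0. RPKM times length, divided by the value of 1 read, was whole for 100% of values (tolerance 0.001), which gave read totals. A spreadsheet had turned 27 symbols into dates; none is a member, and they were kept as rows. The values of 1 tested member are not reported here; it stays in the counts and medians.

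Genes with at least 0.5 RPKM in 3 of 6 libraries (11386) were tested on log2(RPKM + 0.5) with limma 3.58.1 in R 4.3.3 (empirical Bayes, variance trend, no block), with Benjamini-Hochberg adjustment over all of them at 0.05. Tables and figures used Python 3.11.15, pandas 2.3.3, numpy 2.4.6 and matplotlib 3.10.9. The code of the main fit was tested on simulated data, with noise drawn separately for each library and no shared shift of replicate 1. Alternatives were pseudocounts 0.1 and 1, other filters, median-of-ratios scaling, voom, the replicate block, replicate 1 left out or as a covariate, and each library left out. Members, lists, alternatives and the rule for named genes were chosen with earlier results of these data known. That rule took members called over 6 libraries or without replicate 1, at an unadjusted p under 0.05, or among the 3 most abundant alpha, beta and laminin chains; and up to 4 called genes per partner list, or else the 2 with the smallest p. Library values of other members, and of Spp1 and Fn1, were added after they had been seen.

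Deviations from the group means correlated across genes at 0.58, 0.18 and 0.68 between same-numbered libraries, each past the chosen cut-off of 0.1. Crossed values were 0.51 (shCTL replicate 2 with shHSF1 replicate 3) and 0.24 (shCTL replicate 3 with shHSF1 replicate 2), both higher than 0.18. Deviations cancel within a group, so replicate 1 lying apart in both groups can make these values positive. They therefore cannot show that replicates 2 and 3 are paired by number. The replicate block and the ratios within a replicate number took the numbers as labelled, and the main fit used no pairing. What same-numbered libraries share is not in the labels.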

Additional observations from a re-analysis of the deposited data

How the results depend on the processing

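Of the 21 members, 10 kept their direction in all 15 alternatives: Itga5, Itga7, Itga8, Itgb1, Itgb4, Itgb5, Itgb6, Lama5, Lamb3 and Lamc1 (Itgb6 in the 14 it was tested in). Of these, 7 still moved by over 1.5 times with 1 library left out: Itga8 ran from −1.08 (without shHSF1 replicate 1) to −0.26 (without shCTL replicate 1), Lama5 from −0.78 (without shHSF1 replicate 1) to −0.10 (without shHSF1 replicate 3), Itgb4 from −0.76 to −0.14 (the same libraries), Lamb3 from 0.37 (without shCTL replicate 1) to 1.54 (without shCTL replicate 3), Lamc1 from 0.077 (without shHSF1 replicate 2) to 0.25 (without shHSF1 replicate 3), and Itga5 and Itgb1 down to 0.21 and 0.17 (without shCTL replicate 1). The members called were 2 higher and 1 lower both without the replicate 1 libraries and with replicate 1 as a batch covariate, and 0 in every other alternative. All genes called were 18 with no filter, 11 with voom, 20 with the replicate block, 1262 without both replicate 1 libraries and 642 with replicate 1 as a covariate, and 0 to 8 with each library left out (0 without shCTL replicate 2 or shHSF1 replicate 2, 1 without shHSF1 replicate 3, 5 without shCTL replicate 3, 8 without shHSF1 replicate 1). The replicate block changed no call among the members or named partners.

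Log2 differences that changed sign, none of them called over 6 libraries, were those of Itgb3 (0.0092 with a pseudocount of 1, 0.042 with voom and 0.95 without both replicate 1 libraries), Lamb1 (−0.026 with median-of-ratios scaling), and, without both replicate 1 libraries, Itga3 (−0.069), Itgav (0.050) and Lama3 (−0.30). With each library left out in turn the ranges were −0.38 to 1.06 for Itga1, −0.096 to 0.64 for Itga2, −0.15 to 0.41 for Itga3, −0.27 to 0.056 for Itga6, −0.17 to 0.13 for Itgav, −0.88 to 0.062 for Itgb2, −0.33 to 0.52 for Itgb3, −0.25 to 0.64 for Lama3, −0.042 to 0.18 for Lamb1, −0.14 to 0.48 for Lamb2, −0.29 to 1.61 for Tns1 and −0.089 to 1.05 for Fbln1. The cause was not tested. With 3 libraries a group and replicate 1 apart, a difference of the size seen for Itgb5 did not pass, which does not show that the groups are alike.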
